A study of Saccharomyces cerevisiae with 8 samples.

Results

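The comparison described here asked what happened to the transcripts of budding yeast, Saccharomyces cerevisiae, when the mRNA capping enzyme Ceg1 was taken out of the nucleus of cells that lack the exonuclease Xrn1. It took the ceg1-AA/xrn1D libraries, 3 of the 7 libraries with a file: 2 from rapamycin-treated cells and 1 from DMSO-treated cells. The labels list 8 samples, and replicate 2 of ceg1-AA/xrn1D DMSO was not analysed here. All 3 libraries carried MATalpha, tor1-1, fpr1::NAT, RPL13AxFKB12::TRP and CEG1-FRB::HIS. The genotype text adds KAN::XRN1 for replicate 1 of each treatment and KAN::XRN3 for replicate 2. Cells were exposed to DMSO or rapamycin for 45 min. The libraries of ceg1-AA, the same genotype without the KAN marker, 2 with DMSO and 2 with rapamycin, were used for reference only. Nothing in the labels says that replicates came from separate cultures.

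An mRNA cap is begun by the triphosphatase Cet1, followed by the guanylyltransferase Ceg1, and the methyltransferase Abd1 then completes the cap. An uncapped 5′ end is open to 5′ to 3′ exonucleases, Xrn1 in the cytoplasm and Rat1 in the nucleus. In the anchor-away method, rapamycin bridges an FRB-tagged nuclear protein to FKBP12 on a ribosomal protein, and the tagged protein is carried out of the nucleus as ribosomal subunits are exported. The tor1-1 allele and the loss of FPR1 are used so that rapamycin does not also inhibit the TOR kinase. No strain without the FRB tag was analysed here, so the effect of rapamycin itself and that of Ceg1 removal cannot be told apart.

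The 3 ceg1-AA/xrn1D libraries held 3050579 counts with DMSO and 2990340 and 3385761 with rapamycin, over 6600 open reading frames, of which 5879 passed the filter on low counts. Levels are given as CPM, counts divided by the TMM-scaled library total, and a log2 ratio sets one rapamycin library against the DMSO library. The 2 ratios of a gene are called pair 1 and pair 2, they share that single DMSO library, and no test was made. XRN1 had 0 counts in all 3 libraries, including the replicate 2 library whose label names XRN3, against 338 to 794 counts in the ceg1-AA libraries. FPR1 had 0 counts in all 7 libraries. CEG1 RNA was at 48.9 CPM with DMSO and at 51.0 and 52.6 CPM with rapamycin, so the depleted protein's own transcript was at a similar level in each. The alpha-specific mating genes were read, as the MATalpha label implies, with MF(ALPHA)1 at 1784, 2907 and 2833 counts, while the a-specific genes MFA1 and MFA2 had 0 or 1 count. Other a-specific genes were read in both strains. STE6 was at 105, 145 and 122 CPM and BAR1 at 20.4, 26.4 and 29.6 CPM. Over the ceg1-AA libraries of both treatments they were at 30.3 to 117 and 7.38 to 23.9 CPM. Within DMSO and within rapamycin, both genes were higher in every ceg1-AA/xrn1D library than in the ceg1-AA libraries. STE2 was at 56.6, 56.1 and 55.7 CPM, above its 9.02 to 34.3 CPM in ceg1-AA, and the part of these genes in the results was not tested.

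Few transcripts were far from their DMSO level without Xrn1. Of the 5879 genes, 19 were at least 2-fold higher in both pairs (0.323%) and 11 were at least 2-fold lower in both pairs (0.187%). At 1.5-fold the counts were 146 higher (2.48%) and 145 lower (2.47%). The mean of the 2 log2 ratios lay between -0.59 and 0.54 for the central 90% of genes, and its median was 0.00. Over all genes the rapamycin replicates differed from each other with an SD of 0.28 on the log2 scale, and 38 genes (0.646%) were at least 2-fold apart between them. Of all genes 39.3% were higher in both pairs and 39.2% were lower in both, in pairs that share 1 library, and counts over gene groups below are to be read against those shares.

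**Figure D1:**
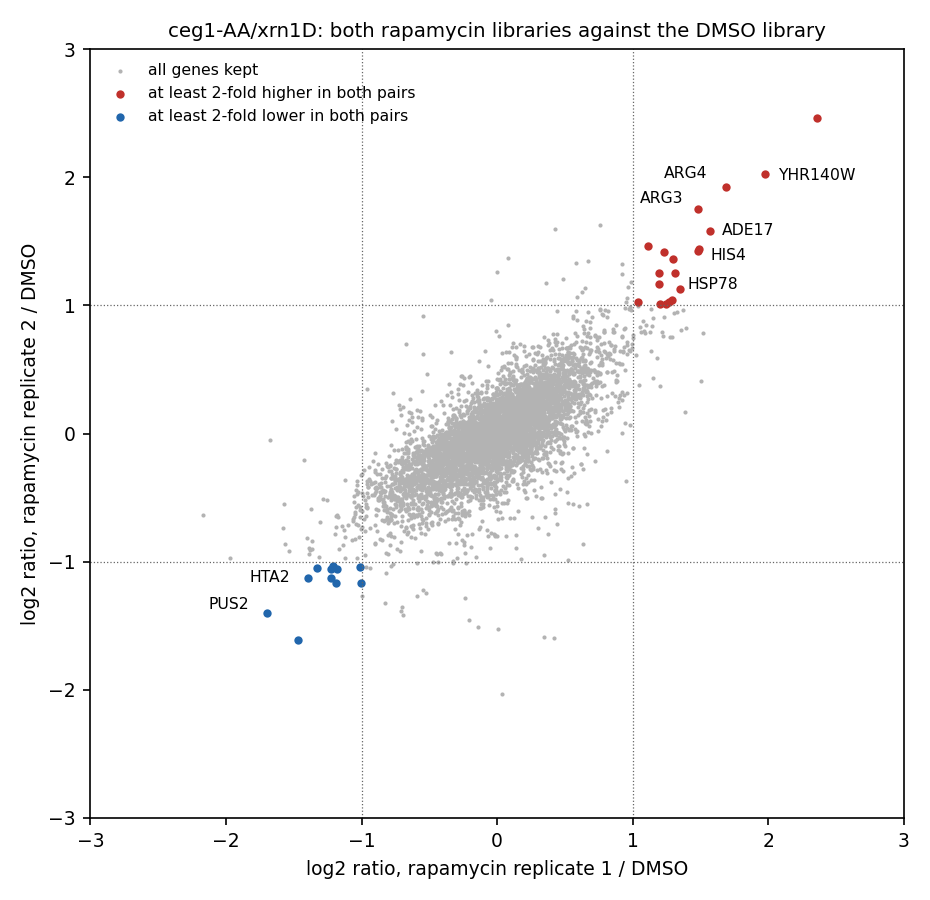
Log2 ratio of rapamycin replicate 1 to DMSO (x axis) against that of rapamycin replicate 2 to DMSO (y axis) for 5879 genes in ceg1-AA/xrn1D. Dotted lines mark 2-fold, and the 19 genes higher and 11 genes lower in both pairs are coloured. Both axes share the DMSO library.

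The genes furthest above DMSO included enzymes of arginine, histidine, purine and folate metabolism. Their upstream sequences are shown here because 7 of the 16 higher genes with a reference annotation held the motif TGACTC, the core letters bound by Gcn4, activator of amino acid synthesis genes, and by Bas1, activator of purine and histidine genes. Of 5504 windows of the same kind 481 held it on either strand (8.74%), and 0 of 8 annotated genes in the lower set did. Windows run from 400 to 101 bases before the start codon, on the gene's strand, 5′ to 3′, from RefSeq assembly R64, and can reach into a neighbouring gene. Capitals mark TGACTC or its reverse complement. ARG4 (chrVIII:141503-141802, minus strand) encodes argininosuccinate lyase, the last enzyme of arginine synthesis. ADE17 (chrXIII:509381-509680, minus strand) encodes the enzyme of the last steps to the purine nucleotide IMP. HIS4 (chrIII:68434-68733, minus strand) encodes a multifunctional histidine enzyme. MTD1 (chrXI:589995-590294, plus strand) encodes an NAD-dependent methylenetetrahydrofolate dehydrogenase.
ARG4: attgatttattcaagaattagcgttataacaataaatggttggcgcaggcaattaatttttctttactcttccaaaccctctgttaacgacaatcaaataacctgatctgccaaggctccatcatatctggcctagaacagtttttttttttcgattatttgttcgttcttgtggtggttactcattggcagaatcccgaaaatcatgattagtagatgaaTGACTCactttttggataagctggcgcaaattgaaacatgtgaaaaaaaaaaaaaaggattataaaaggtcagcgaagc
ADE17: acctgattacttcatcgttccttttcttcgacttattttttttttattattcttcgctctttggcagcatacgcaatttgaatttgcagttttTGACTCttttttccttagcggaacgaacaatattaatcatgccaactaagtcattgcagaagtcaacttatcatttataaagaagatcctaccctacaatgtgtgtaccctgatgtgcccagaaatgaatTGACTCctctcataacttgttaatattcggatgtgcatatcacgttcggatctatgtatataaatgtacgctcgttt
HIS4: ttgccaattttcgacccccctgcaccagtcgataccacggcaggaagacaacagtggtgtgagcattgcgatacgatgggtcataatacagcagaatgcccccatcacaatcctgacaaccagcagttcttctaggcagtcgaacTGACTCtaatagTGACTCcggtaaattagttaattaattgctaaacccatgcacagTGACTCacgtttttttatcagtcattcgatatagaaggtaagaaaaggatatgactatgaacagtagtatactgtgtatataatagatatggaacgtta
MTD1: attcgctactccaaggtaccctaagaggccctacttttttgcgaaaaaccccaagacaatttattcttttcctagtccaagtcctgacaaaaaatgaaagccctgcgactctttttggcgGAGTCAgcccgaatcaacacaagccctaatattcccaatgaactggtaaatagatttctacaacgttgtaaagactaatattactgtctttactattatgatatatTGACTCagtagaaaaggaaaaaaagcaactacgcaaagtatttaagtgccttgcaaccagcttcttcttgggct
The matches begin 179 bases before the start codon in ARG4, 307 and 177 in ADE17, 255, 243 and 199 in HIS4, and 280 and 174 in MTD1. A match describes the letters only and does not show that a factor was bound.

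ARG4 was at 340 CPM with DMSO and at 1102 and 1297 CPM with rapamycin, log2 ratios of 1.69 and 1.93. ARG3, ornithine carbamoyltransferase, went from 5.63 CPM to 17.4 and 21.1 CPM, with only 19 counts in the DMSO library. Both genes stood well above DMSO in either rapamycin library, and both also rose in ceg1-AA, by 1.40 ± 0.22 (SE) for ARG4 and 2.72 ± 0.41 for ARG3 on the log2 scale (edgeR quasi-likelihood adjusted p = 0.000557 and 0.000409, 2 against 2 libraries). Of 10 arginine genes, 8 were higher in both pairs and 4 by at least 1.5-fold, with a median log2 ratio of 0.51. ARG7, which makes ornithine, had a mean log2 ratio of 0.89. The exceptions were ARG1, argininosuccinate synthetase, at 69.3, 64.8 and 70.5 CPM, and ARG8, acetylornithine aminotransferase, at 162, 134 and 179 CPM. For these 2 the rapamycin libraries lay on either side of DMSO, while in ceg1-AA they rose by 1.52 and 1.00 (edgeR adjusted p = 0.000171 and 0.0020).

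HIS4 was at 254 CPM with DMSO and at 712 and 681 CPM with rapamycin, log2 ratios of 1.49 and 1.42. HIS3 had ratios of 0.78 and 0.92, but the strain's CEG1 tag carries a HIS marker, so reads assigned to it may not all come from its own locus. The other 5 histidine genes had mean log2 ratios of 0.10 to 0.52. In lysine synthesis 7 of 9 genes were higher in both pairs, led by LYS1, saccharopine dehydrogenase, at 115 CPM with DMSO and 229 and 262 CPM with rapamycin. LYS4, homoaconitase, was the lysine gene below DMSO in both, at 237, 150 and 213 CPM. GCN4 RNA itself was lower in the mean, with a log2 ratio of -0.36, and the branched-chain amino acid genes were lower in both pairs for 10 of 12, with a median of -0.35.

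In purine synthesis 11 of 13 genes were higher in both pairs, with medians of 0.37 in each pair. ADE17 was at 323 CPM with DMSO and at 959 and 969 CPM with rapamycin, log2 ratios of 1.57 and 1.58. ADE12, adenylosuccinate synthase, which leads from IMP to AMP, was at 242, 482 and 473 CPM, and ADE2, phosphoribosylaminoimidazole carboxylase, at 240, 386 and 392 CPM. The replicates of these 3 genes lay close together and above DMSO. ADE57, whose product catalyses a pair of earlier steps, stayed near DMSO at 392, 377 and 384 CPM. Of the 4 genes on the branch to GTP, 3 were lower in both pairs, with list medians of -0.73 in pair 1 and -0.34 in pair 2. MTD1 was at 88.0, 217 and 228 CPM, and SHM2, cytosolic serine hydroxymethyltransferase, had a mean log2 ratio of 0.54.

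Several of the higher genes also varied widely between the DMSO libraries of the related strain. Of the 19 genes, 9 were at least 2-fold apart between the 2 ceg1-AA DMSO libraries, against 6.55% of all genes, and of the 11 lower genes 1 was. HIS4 was at 292 and 726 CPM in those DMSO libraries and ADE17 at 230 and 577 CPM. For HIS4 the higher DMSO value reached the level of all 4 rapamycin libraries of both strains, and for ADE17 it lay below the ceg1-AA/xrn1D rapamycin values. RNY1, a vacuolar RNase, was at 48.0, 117 and 98.8 CPM in ceg1-AA/xrn1D and at 27.0 and 117 CPM in the ceg1-AA DMSO libraries. TFS1, an inhibitor of carboxypeptidase Y, was at 59.8, 144 and 122 CPM, and at 32.0 and 171 CPM in those DMSO libraries. ARG4, at 343 and 540 CPM, and MTD1, at 105 and 125 CPM, differed less there. How far a second ceg1-AA/xrn1D DMSO library would have differed was not tested.

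HSP78, the mitochondrial chaperone of the ClpB family, was at 279 CPM with DMSO and at 696 and 668 CPM with rapamycin. In ceg1-AA it fell, with a log2 change of -1.06 ± 0.27 (SE, edgeR adjusted p = 0.00914), and its DMSO libraries stood at 234 and 454 CPM. RIB5, riboflavin synthase, was at 145, 332 and 346 CPM, and ARO5 at 37.9, 83.0 and 106 CPM. MUM3, a sporulation gene, was at 16.3, 39.5 and 45.2 CPM, and YHR140W, which has no assigned role here, at 4.15, 19.1 and 19.8 CPM on 14 DMSO counts. YMR193C-A had the highest ratios, 2.36 and 2.46, on 22 DMSO counts. It is 1 of 3 identifiers in the higher set that the RefSeq reference does not hold, so its overlaps with other genes were not checked. YHR022C had ratios of 1.49 and 1.44. YHR022C overlaps ECM12 on the other strand, and since strand use in counting is not given, the 2 genes' reads cannot be told apart. Of the 19 higher genes, 10 also rose past the edgeR threshold in ceg1-AA and 1, HSP78, fell, where 24.3% of all genes rose and 22.8% fell.

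**Figure D2:**
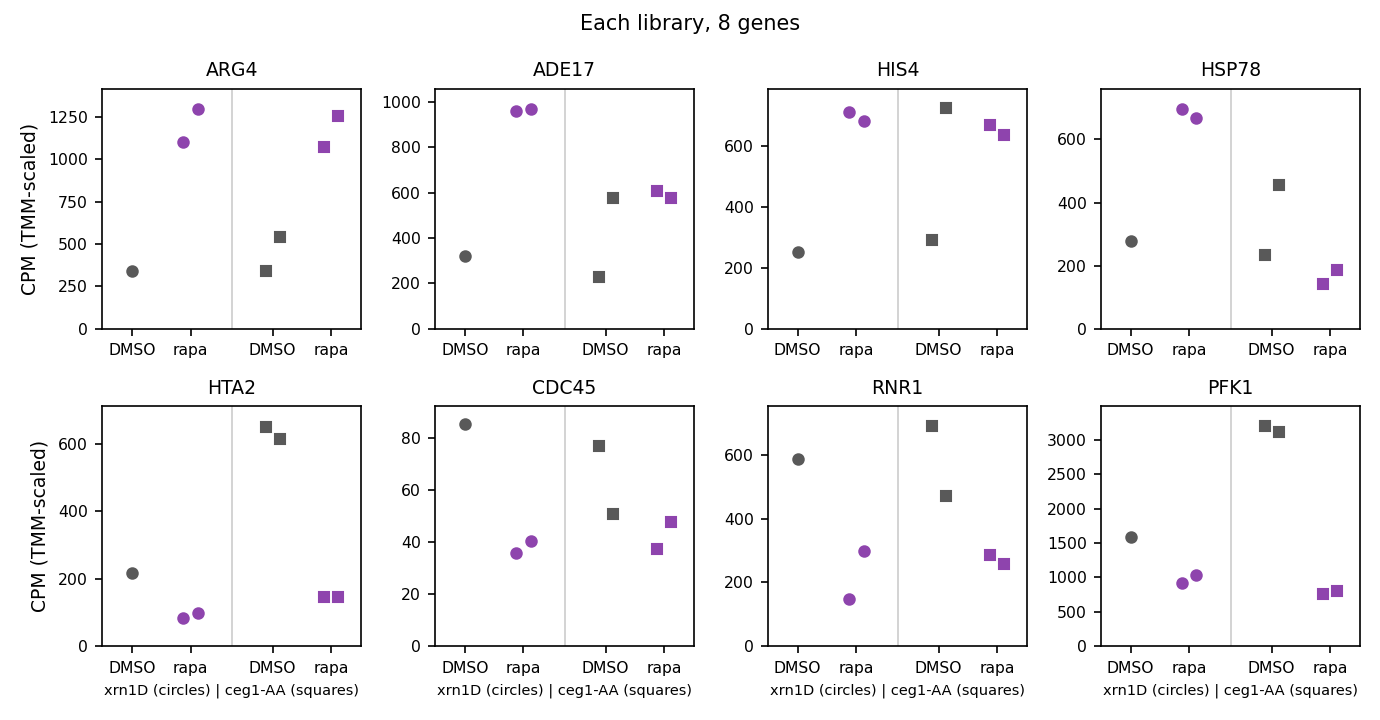
CPM of 8 genes in each of the 7 libraries (points), by strain and treatment. For ARG4, ADE17, HIS4 and HSP78 both ceg1-AA/xrn1D rapamycin points lie above the DMSO point, and for HTA2, CDC45, RNR1 and PFK1 both lie below it.

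The genes furthest below DMSO included a histone gene, a replication gene and an amino acid permease gene. HTA2, one of the 2 histone H2A genes, was at 217 CPM with DMSO and at 82.2 and 99.1 CPM with rapamycin, log2 ratios of -1.39 and -1.13. All 8 core histone genes were lower in both pairs, with a median of -0.58, and HTB2, an H2B gene, and HHF2, an H4 gene, had mean ratios of -0.94 and -0.91. HTA1, the other H2A gene, was at 566, 384 and 399 CPM. Paired histone genes are close in sequence, so the split of reads between copies is uncertain. Histone transcripts are made in S phase, and in these bulk cultures fewer cells in S phase and less transcript per cell cannot be told apart.

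The G1/S and DNA replication genes lay below DMSO with the histones. Of 46 such genes, 41 were lower in both pairs and 11 by at least 1.5-fold, with a median log2 ratio of -0.41. RNR1, the large subunit of ribonucleotide reductase, was at 586 CPM with DMSO and at 149 and 298 CPM with rapamycin, so it was lower in both although the replicates were 2-fold apart. CDC45, which helps to start replication forks, was at 85.3, 35.9 and 40.4 CPM, and POL30, the sliding clamp PCNA, at 219, 87.5 and 112 CPM. The S-phase cyclins CLB6 and CLB5 had mean log2 ratios of -0.95 and -0.87. PCL1, a G1 cyclin, was the list's highest member at 0.28, with a ratio of -0.09 in pair 1 and 0.64 in pair 2. The G2/M genes had a median of 0.01 and the daughter and M/G1 genes 0.18, with 12 of 17 higher in both pairs, among them SIC1, an inhibitor of S-phase cyclins, at 51.0, 72.6 and 77.1 CPM.

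Upstream windows of CDC45, POL30 and RNR1 are shown because the G1/S genes with the MluI cell-cycle box, ACGCGT, the element bound by the MBF complex, lay lower than those without. Capitals mark ACGCGT, which reads the same on both strands, in windows taken as above from RefSeq assembly R64. CDC45 is at chrXII:346042-346341 on the minus strand, POL30 at chrII:425867-426166 on the minus strand and RNR1 at chrV:298550-298849 on the plus strand.
CDC45: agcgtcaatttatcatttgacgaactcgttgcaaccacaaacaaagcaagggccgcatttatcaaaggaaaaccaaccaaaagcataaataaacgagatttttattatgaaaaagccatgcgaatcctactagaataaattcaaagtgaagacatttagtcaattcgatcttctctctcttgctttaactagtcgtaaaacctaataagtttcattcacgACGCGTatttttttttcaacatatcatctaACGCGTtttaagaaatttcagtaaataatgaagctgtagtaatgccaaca
POL30: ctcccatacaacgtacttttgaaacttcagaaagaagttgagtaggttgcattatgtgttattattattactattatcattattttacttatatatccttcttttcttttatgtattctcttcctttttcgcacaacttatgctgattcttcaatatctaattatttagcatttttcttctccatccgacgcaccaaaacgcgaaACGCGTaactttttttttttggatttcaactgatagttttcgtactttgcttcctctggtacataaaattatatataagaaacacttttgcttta
RNR1: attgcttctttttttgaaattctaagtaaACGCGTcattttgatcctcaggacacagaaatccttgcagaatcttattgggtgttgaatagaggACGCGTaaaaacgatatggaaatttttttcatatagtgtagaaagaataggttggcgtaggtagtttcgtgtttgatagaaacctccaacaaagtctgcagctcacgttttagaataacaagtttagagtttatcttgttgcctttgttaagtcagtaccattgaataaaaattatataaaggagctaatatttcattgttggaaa
The box begins 180 and 150 bases before the start codon in CDC45, 195 in POL30, and 371 and 306 in RNR1. It was found in 26 of the 46 G1/S windows (56.5%), against 229 of all 5504 (4.16%). The median mean log2 ratio was -0.58 for the 26 with the box and -0.21 for the 20 without. Over all windows the median was 0.01 with no match (5275 genes), -0.16 with 1 (202 genes) and -0.57 with at least 2 (27 genes). Outside the G1/S list the values were 0.01, -0.15 for 190 genes and -0.46 for 13 genes, so the order held among genes that the list does not name.

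The other motifs differed less. For TGACTC the medians were 0.00 with no match, 0.05 with 1 (435 genes) and 0.32 with at least 2 (46 genes), but outside the 4 synthesis lists the last value was 0.04 (30 genes). AGGGG, the stress response element of Msn2 and Msn4, was in 23.9% of windows, with medians of -0.02, 0.05 and 0.15 for none, 1 and at least 2. GATGAG, the PAC element of ribosome biogenesis genes, was in 17.9%, with 0.02, -0.09 and -0.20. Outside the ribosome biogenesis and RNA polymerase I lists its values were 0.02, -0.07 and -0.09. Among ribosome biogenesis genes the median was -0.50 both with PAC (66 genes) and without (37 genes). Among RNA polymerase I genes it was -0.53 with (8 genes) and -0.28 without (3 genes). GATAAG, read by GATA factors at nitrogen genes, was in 14.0%, with 0.00, 0.03 and 0.11. The E-box of Pho4 and Cbf1 was in 4.58%, with 0.00, 0.02 and -0.09. All were searched on both strands. Genes sharing a motif can also share list membership or level, and the part of level was not tested.

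**Figure D3:**
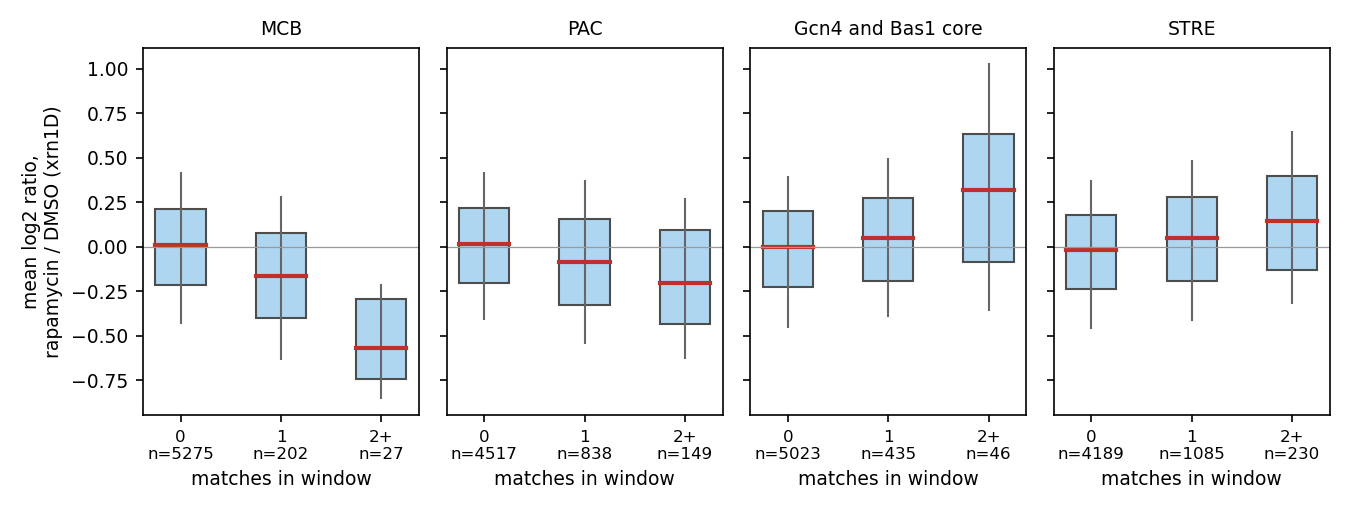
Mean log2 ratio of rapamycin to DMSO in ceg1-AA/xrn1D for genes with 0, 1 or at least 2 matches of a motif in the window before the start codon, for 4 motifs. Boxes span the quartiles, lines the 10th to 90th percentile, and red marks the median. For ACGCGT, titled MCB, the median goes from 0.01 to -0.16 and -0.57.

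GNP1, a glutamine permease, was at 459 CPM with DMSO and at 202 and 220 CPM with rapamycin, and it fell in ceg1-AA as well, by 1.32 on the log2 scale (edgeR adjusted p = 0.000124). INA1 was at 127, 54.1 and 61.6 CPM. PUS2, which makes pseudouridine in mitochondrial tRNA, was at 26.7, 7.57 and 9.51 CPM on 90, 27 and 36 counts, while in ceg1-AA its log2 change was 0.36 (edgeR adjusted p = 0.462). OGG1, a DNA glycosylase for oxidised guanine, went from 60 counts to 30 and 28. The remaining members of the lower set held at most 50 counts in the DMSO library, and PRM3, a karyogamy gene, had 33, 13 and 15. In all, 5 of the 11 lower genes and 16 of the 19 higher ones had a mean count of at least 50.

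The genes that build ribosomes were lower as broad groups by small amounts. Of 103 ribosome biogenesis genes, 101 were lower in both pairs and 9 by at least 1.5-fold, with pair medians of -0.63 and -0.37. NOP1, the methylase of box C/D particles, was lowest at 124 CPM with DMSO and 46.3 and 70.3 CPM with rapamycin. GAR1, a component of box H/ACA particles, was at 121, 55.3 and 69.0 CPM. Of 11 RNA polymerase I genes 10 were lower in both pairs, with pair medians of -0.65 and -0.28, among them RPA135 and RPA190, the enzyme's largest subunits, with mean log2 ratios of -0.73 and -0.51. Of 136 cytosolic ribosomal protein genes 106 were lower in both pairs and 0 were higher in both, with medians of -0.46 in pair 1 and -0.15 in pair 2. The translation elongation genes were lower in both pairs for 11 of 12, with TEF2, an elongation factor 1A gene, at 1724, 762 and 1097 CPM and YEF3, the fungal elongation factor 3, at 7340, 4143 and 5658 CPM. In each of these 4 groups replicate 2 lay nearer to DMSO than replicate 1, by 0.27 to 0.39 in the list median. Across the 5879 genes the level in ceg1-AA DMSO had a rank correlation of -0.24 with the pair 1 ratio and -0.05 with pair 2, a description in which the ratios share the DMSO library.

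**Figure D4:**
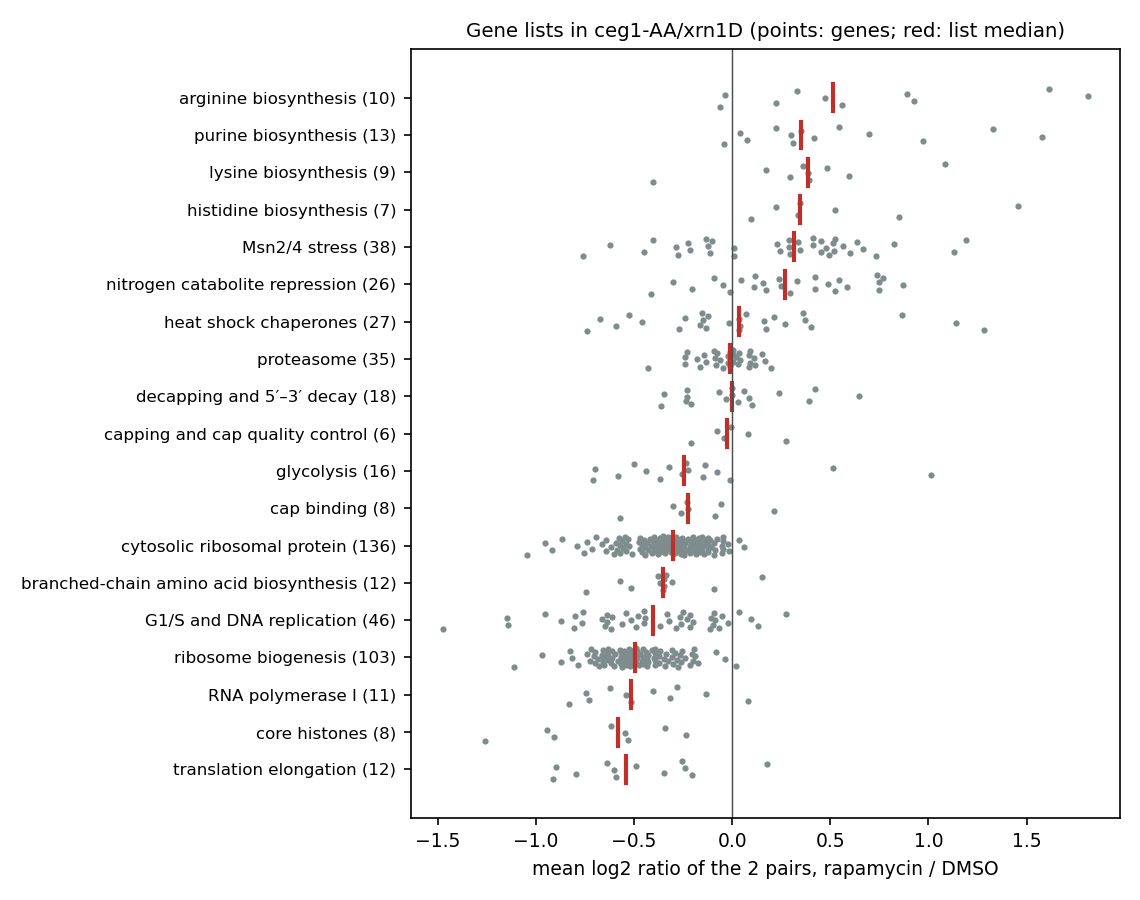
Mean log2 ratio of the 2 pairs (x axis) for each member (points) of 19 gene groups in ceg1-AA/xrn1D, with the group median in red and the number of genes in parentheses. The arginine, purine, lysine and histidine groups lie above 0 and the histone, ribosome biogenesis, RNA polymerase I and elongation groups below 0.

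The stress genes separated the replicates. The Msn2/4 group had a median of 0.53 in pair 1 and 0.12 in pair 2, with 22 of 38 genes higher in both. HSP12, a membrane-associated stress protein, was at 348 CPM with DMSO, 675 in rapamycin replicate 1 and 269 in replicate 2. NCE103, carbonic anhydrase, was at 694, 695 and 241 CPM, TKL2, a transketolase, at 141, 180 and 46.2 CPM, and SPG4 at 21.3, 21.9 and 4.49 CPM. FMP45 was at 91.5, 132 and 45.7 CPM. These 5 were furthest below replicate 1 in replicate 2, and for each DMSO lay between the 2 rapamycin libraries or next to replicate 1. In the other direction HSP30, a plasma membrane stress protein, was at 69.0, 42.9 and 113 CPM, TDH1, a glyceraldehyde-3-phosphate dehydrogenase, at 110, 148 and 335 CPM and SUR2, a sphingolipid hydroxylase, at 108, 35.6 and 73.4 CPM. ECM8 and RNR1 were the others, higher in replicate 2 by 1.26 and 1.00 on the log2 scale. The same Msn2/4 group differed by a median of 1.54 on the log2 scale between the 2 ceg1-AA DMSO libraries, where replicate 2 was the higher.

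Heat shock chaperones had a median of 0.03 in ceg1-AA/xrn1D, with 12 genes higher and 12 lower in both pairs. HSP42, a small heat shock protein, was at 66.1, 167 and 129 CPM and HSP104, the cytosolic disaggregase, at 569, 1048 and 1024 CPM. SSB1 and SSB2, the ribosome-bound Hsp70 proteins, had mean log2 ratios of -0.67 and -0.74, and SSA2, a cytosolic Hsp70, -0.59. In ceg1-AA 21 of the 27 chaperone genes fell, against 22.8% of all genes, and the list median was -1.67. Glycolysis genes had a median of -0.24, which was -0.45 in pair 1 and -0.08 in pair 2, with PFK1 and PFK2, the phosphofructokinase subunits, at -0.71 and -0.70, while all 16 fell in ceg1-AA with a median of -1.77. Whether these responses differ between the strains was not tested.

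Among the nitrogen catabolite repression genes 18 of 26 were higher in both pairs and 5 by at least 1.5-fold, with a median of 0.27. MEP1, an ammonium permease, was at 78.5, 122 and 170 CPM, and GLN3, a GATA activator, at 58.1, 96.5 and 99.9 CPM. PUT4, the proline permease, was the lowest of the group at 241, 229 and 142 CPM. Of 22 autophagy genes 15 were higher in both pairs, with ATG8, the ubiquitin-like protein of the autophagosome, at 10.1, 16.5 and 20.3 CPM. These are groups known to respond to TOR inhibition, and whether rapamycin acted through TOR here was not tested. TOR1 RNA had 1190, 1379 and 1450 counts, in libraries of unequal size, and its level does not measure TOR activity.

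The genes of the cap and of 5′ to 3′ decay stayed near DMSO. Of 6 capping and cap quality control genes 2 were higher and 2 lower in both pairs, with a median of -0.02, and CET1 was highest with a mean log2 ratio of 0.28. RAT1, the nuclear exonuclease, was at 178, 171 and 165 CPM, its partner RAI1 had a mean log2 ratio of -0.21, and DXO1, a decapping nuclease for faulty caps, was at 120, 106 and 128 CPM. In decapping and 5′ to 3′ decay the median over 18 genes was 0.00. DCP2, the catalytic decapping subunit, was at 301, 343 and 366 CPM and DCP1, its activator, at 60.7, 51.3 and 44.1 CPM. DCS2 and DCS1, the latter the scavenger decapping enzyme, were highest at 0.64 and 0.42. The cap-binding group was lower in both pairs for 6 of 8, with TIF4631, an eIF4G gene, at 311, 194 and 226 CPM. Exosome and Ski genes had a median of -0.26, with 12 of 18 lower in both pairs, and RNA polymerase II subunits -0.29, with 10 of 12.

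**Figure D5:**
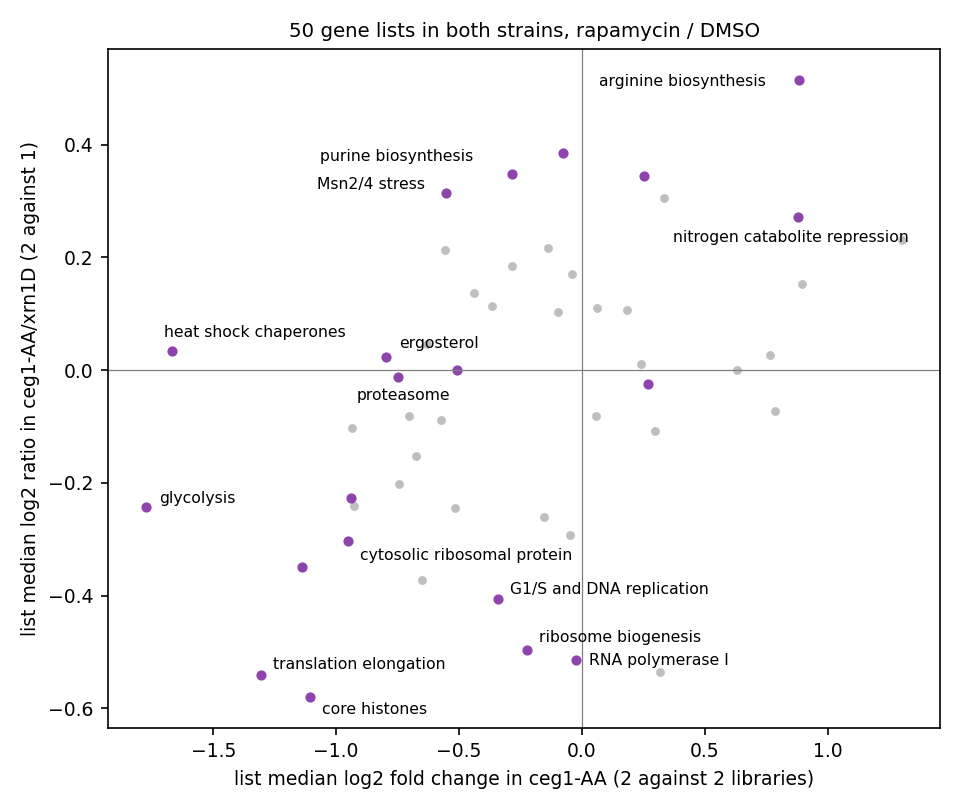
Median log2 change of 50 gene groups in ceg1-AA (x axis, 2 against 2 libraries) against the median of the mean log2 ratios without XRN1 (y axis, 2 against 1). The arginine group is above 0 in both, glycolysis is at -1.77 and -0.24, and the heat shock chaperones are at -1.67 and 0.03.

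The comparisons in the strains share no library, so their genes can be set side by side. In ceg1-AA 1429 genes rose (24.3%) and 1338 fell (22.8%) by edgeR. Of the 146 genes at least 1.5-fold higher in both ceg1-AA/xrn1D pairs, 64 rose in ceg1-AA (43.8%) and 3 fell (2.05%). Of the 145 lower genes, 64 fell (44.1%) and 2 rose (1.38%). Of the 146 higher genes 27.4% were at least 2-fold apart between the ceg1-AA DMSO libraries. Of the 145 lower genes 7.59% were, which is near the 6.55% of all genes. Open reading frame length was weakly related to the ratio, with median log2 ratios in pairs 1 and 2 of -0.03 and -0.08 in the shortest quintile of genes and 0.05 and 0.04 in the longest.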

How the data were processed

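Whole-number counts per open reading frame were deposited by the authors for 7 libraries, 962326 to 3385761 per library. Per the file headers, each deposited file also holds a length, a bias factor (a ratio) and a TPM value. HISAT2 2.1.1, SAMtools 1.15.1, FastQC 0.11.5, DESeq2 and build R64 (sacCer3) are named in the submitters' processing notes, and the counter and its use of strand are not given in the sources used here. Counts of overlapping genes and of near-identical copies are therefore uncertain. Names and sequences came from RefSeq assembly R64, which held 5917 of 6600 identifiers.

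Groups came from the sample titles. Genes were kept by filterByExpr and scaled by TMM over the 7 libraries in edgeR 4.0.16 (R 4.3.3). In ceg1-AA/xrn1D each rapamycin library was set against the DMSO library as log2 CPM, adding a prior count of 2, and a gene was counted when at least 2-fold in both pairs. The deposited TPM, with a pseudocount of 1, served as an alternative. ceg1-AA was tested by the edgeR quasi-likelihood test with all groups in the model and a Benjamini-Hochberg adjusted p threshold of 0.05. Its p-values rest on the spread between replicates of ceg1-AA and of ceg1-AA/xrn1D rapamycin, which may be technical.

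Genes were named when at least 2-fold in both pairs with a mean count of at least 50 over the 3 libraries, when members of one of 50 gene lists, or when among the 5 furthest apart in each direction between the rapamycin replicates. Any other gene was picked out once its values were known. The members and lists were chosen with earlier results of these data known. A count of 3 in the ceg1-AA/xrn1D libraries equals 0.793 to 0.889 CPM, and this floor covers counting error only, because reads copied by PCR and carrying no molecular identifier are not separate molecules. TMM gives relative levels, so a change shared by all transcripts is not seen.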

Additional observations from a re-analysis of the deposited data

Results flagged for a closer look

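The values below had one sign in every pair of ceg1-AA/xrn1D and the other sign in every pair of ceg1-AA. The genes given are limited to those at least 2-fold in both pairs with a mean count of at least 50. Genes below that threshold also did so. RRP14 had -0.19 and -0.32 in ceg1-AA/xrn1D and 1.06 to 1.24 in ceg1-AA. ADE13 had 0.37 and 0.22, and -1.33 to -0.80. The difference between strains was not tested for any of them. HSP78 had a mean log2 ratio of 1.29 in ceg1-AA/xrn1D and a log2 fold change of -1.06 in ceg1-AA. PUS2 had -1.55 and 0.36, and the ceg1-AA value did not pass the threshold (edgeR adjusted p = 0.462). The purine biosynthesis list had a median of 0.35 in ceg1-AA/xrn1D and -0.28 in ceg1-AA, the nonsense-mediated decay list -0.11 and 0.30, and the list of glutamate, glutamine and ammonium genes 0.21 and -0.56. The purine list was split in ceg1-AA, where 3 of 13 genes rose and 6 fell by edgeR, with pair medians of -0.39 to -0.04. ADE2 and MTD1, higher in both pairs of ceg1-AA/xrn1D, were among those that rose, by 1.63 and 0.57. The pair medians in ceg1-AA/xrn1D were -0.20 and -0.11 for nonsense-mediated decay and 0.10 and 0.16 for the glutamate, glutamine and ammonium genes. Both lists are small and lay near DMSO, with 0 genes past 1.5-fold in both pairs. Of 5 nonsense-mediated decay genes 3 were lower in both pairs and 2 were mixed. Of 8 glutamate, glutamine and ammonium genes 4 were higher in both, 1 was lower and 3 were mixed. Pair medians in ceg1-AA were taken for only part of the 50 lists, so the lists given are not all that differ in sign. Among lists outside that part, GTP synthesis had pair medians of -0.73 and -0.34 in ceg1-AA/xrn1D and a median of 0.32 in ceg1-AA. The retrograde and TCA list had 0.04 and 0.11, and -0.63. The zinc regulon had -0.11 and -0.01, and 0.78.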

How the results depend on the processing

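With 1 DMSO library in ceg1-AA/xrn1D, no value there has a replicate check on the control side. The 19 higher genes became 7 when scaled to 4 mitochondrially encoded transcripts, 30 with a prior count of 0.5, 35 on the deposited TPM and 146 at 1.5-fold, and 37 to 50 with 1 rapamycin library left out. The 11 lower genes became 17 with upper-quartile scaling, 87 with mitochondrial scaling, 5 at a mean count of at least 50, 6 with a prior count of 5 and 145 at 1.5-fold, and 36 to 68 with 1 rapamycin library left out. With a rapamycin library left out only 1 pair has to pass, so these counts cannot fall below 19 and 11. Mitochondrial scaling shifted the all-gene median by -0.35 and turned these list medians: purine to -0.00388, histidine to -0.00785, Msn2/4 to -0.0381, nitrogen catabolite repression to -0.0745, deadenylation to -0.25, mitochondrial ribosomal proteins to -0.24, autophagy to -0.0312, daughter and M/G1 to -0.16 and glutamate, glutamine and ammonium to -0.14. In ceg1-AA, 1429 higher and 1338 lower genes became 2909 and 649 with total counts alone, 852 higher with DESeq2, and 899 to 1366 higher and 979 to 1350 lower with 1 library left out. The lowest, 899, was without rapamycin replicate 2. With a replicate block on the 4 ceg1-AA libraries they were 1130 and 1510, against 1056 and 1418 for those libraries without the block, an alternative chosen after seeing the data. Same-numbered deviations had a Pearson r of 0.131 over 2 pairs, so the numbers were not shown to pair the samples. No paired analysis was possible for ceg1-AA/xrn1D because its DMSO group has 1 library. The cause of these shifts was not tested.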
